A study of Mus musculus with 30 samples.

Results

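A set of 10 genes that serve antigen presentation by class I molecules of the major histocompatibility complex (MHC) was followed in the ventral prostate (VP) of mice fed different fats. They were chosen by gene symbol and are H2-K1, H2-D1, H2-Q6, H2-Q7, H2-T23, B2m, Tap1, Tap2, Psmb8 and Nlrc5. Each was found once among the 39179 gene identifiers counted, so the set was 10 of 39179, and all 10 passed the filter on low counts in every comparison.

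The VP of 30 male C57BL/6 mice was sequenced, 5 mice for each of 6 groups. The mice had been fed, from weaning, a diet whose fat was linseed oil (LO, rich in omega-3 fatty acids), soybean oil (SO, rich in omega-6 fatty acids) or pork fat, that is lard (PF, rich in saturated fatty acids), and the VP was taken after 12 or 32 weeks on the diet. All groups shared the strain, the sex and the tissue, and no group received a standard chow or an added agent. The labels give 1 VP sample per mouse and do not give cages or litters, and a longer time on a diet is also a higher age, so time and age cannot be told apart.

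Class I molecules display short peptides from inside a cell at its surface, where CD8 T cells and natural killer (NK) cells read them. Each molecule is a heavy chain (H2-K1 and H2-D1 encode the classical chains of this strain, H2-Q6, H2-Q7 and H2-T23 non-classical ones) bound to the light chain beta-2-microglobulin (B2m). Peptides are cut by the proteasome, which takes up the interferon-inducible subunit Psmb8, are carried into the endoplasmic reticulum by the transporter formed by Tap1 and Tap2, and the transcription of most of these genes is driven by Nlrc5, the class I transactivator. Nearly every nucleated cell makes class I molecules, and interferons raise their level.

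Between 27590631 and 41301707 read pairs were counted on genes per mouse, with a median of 33684704, and pairs that aligned to more than 1 place, which were not counted, made up 15.981% to 20.262% of each library's tally. The lowest raw count of any of the 10 genes in any mouse was 167, for Nlrc5. Markers of luminal epithelium summed to between 1522 and 2043 CPM (read pairs on a gene per 1e+06 pairs counted), and the seminal vesicle markers did not exceed 0.306 CPM in total in any mouse. The 6 mice numbered 1 stood apart from the other 24. For 750 genes, 4.52% of the genes examined, all 6 lay above all 24, and Tap2 was among them. Their mean difference from the other mice of their groups, on the log2 CPM scale, was 0.91 for Tap2, 0.68 for H2-T23, 0.56 for H2-D1 and 0.52 for H2-K1, against -0.04 for B2m, -0.06 for H2-Q6 and -0.12 for Nlrc5. Fold changes that rest on these mice are therefore also given without them, but the correlations below are not.

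Except for B2m on chromosome 2 and Nlrc5 on chromosome 8, all of the genes lie within the MHC on chromosome 17 of GRCm38. H2-K1 (ENSMUSG00000061232) lies at 33996017 to 34000347 on the minus strand. Tap1 (ENSMUSG00000037321) at 34187553 to 34197225, Psmb8 (ENSMUSG00000024338) at 34197721 to 34201454 and Tap2 (ENSMUSG00000024339) at 34203527 to 34216321 are neighbours on the plus strand. H2-D1 (ENSMUSG00000073411) at 35262730 to 35267499, H2-Q6 (ENSMUSG00000073409) at 35424850 to 35430055 and H2-Q7 (ENSMUSG00000060550) at 35439155 to 35443773 follow on the same strand. H2-T23 (ENSMUSG00000067212) lies at 36029773 to 36032855 on the minus strand. On the plus strand, B2m (ENSMUSG00000060802) spans 122147686 to 122153083 of chromosome 2, and Nlrc5 (ENSMUSG00000074151) spans 94434356 to 94527272 of chromosome 8.

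Promoter stretches of the heavy chain genes and B2m are shown for the motifs that class I promoters are known for. Class I promoters carry, as background, an enhancer with a binding site for NF-kB and an interferon response element, followed by the X and Y boxes through which Nlrc5 acts. RefSeq promoters on GRCm38.p6, 250 bases before to 50 bases after a start site, were found for 8 of the 10 genes, not for Tap2 and Nlrc5. The following stretches hold the matches to 4 motifs, in capitals, searched on both strands: GGGNNTTCC for NF-kB, GAAA and GAAA with NN between them for the interferon response, TGACG for the X2 box and ATTGG for the Y box, which reads CCAAT on the other strand.
H2-K1, chr17:34000334-34000468, minus strand: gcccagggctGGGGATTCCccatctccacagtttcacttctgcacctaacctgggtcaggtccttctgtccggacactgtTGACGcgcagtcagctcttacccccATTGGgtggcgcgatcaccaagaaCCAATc
H2-D1, chr17:35262913-35263055, plus strand: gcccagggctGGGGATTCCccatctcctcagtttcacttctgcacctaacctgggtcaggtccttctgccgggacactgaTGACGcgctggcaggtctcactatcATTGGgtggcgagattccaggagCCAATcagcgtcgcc
H2-Q6, chr17:35424667-35424809, plus strand: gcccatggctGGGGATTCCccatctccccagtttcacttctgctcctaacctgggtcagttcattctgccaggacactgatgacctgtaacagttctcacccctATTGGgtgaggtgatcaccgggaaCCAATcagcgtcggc
H2-Q7, chr17:35439012-35439153, plus strand: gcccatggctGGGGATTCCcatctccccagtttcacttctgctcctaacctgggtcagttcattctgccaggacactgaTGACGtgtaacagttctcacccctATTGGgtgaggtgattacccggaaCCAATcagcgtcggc
H2-T23, chr17:36032739-36032835, minus strand: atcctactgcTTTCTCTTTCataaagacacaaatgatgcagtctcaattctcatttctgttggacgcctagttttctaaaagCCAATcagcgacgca
B2m, chr2:122147538-122147648, plus strand: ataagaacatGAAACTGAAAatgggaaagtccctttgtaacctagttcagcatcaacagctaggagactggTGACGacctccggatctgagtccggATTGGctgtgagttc
The stretches of H2-Q6 and H2-Q7 were 97.2% identical, those of H2-D1 and H2-Q7 84.0%, those of H2-D1 and H2-Q6 82.9% and those of H2-K1 and H2-D1 82.6%. The NF-kB motif was found in H2-K1, H2-D1, H2-Q6 and H2-Q7, 4 of the 8 promoters, against 5.85% of all 32544 promoters in the table. The Y box was found in 7 of 8 (Psmb8 was the exception) against 37.4%, the X2 box in H2-K1, H2-D1, H2-Q7, B2m and Tap1, 5 of 8, against 20.9%, and the interferon motif in H2-T23 and B2m, 2 of 8, against 3.45%. Only this exact interferon pattern was sought, so the other promoters are not shown to lack an interferon response element. In H2-K1, H2-D1, H2-Q6 and H2-Q7 the Y box began 95, 95, 94 and 93 bases after the first base of the NF-kB motif. A motif for STAT factors, TTCNNNGAA, occurred in Psmb8, 1 of 8, against 8.33%. No matches overlapped within the printed stretches. These are matches of letters in a window and not sites shown to be bound. The motifs were chosen because class I promoters are known for them, and the heavy chain stretches resemble each other in sequence. The counts beside the shares of all promoters therefore measure no enrichment.

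Per kilobase of exon, taken over all annotated exons of a gene, B2m stood highest with a mean over the mice of 1360 CPM per kb. H2-K1 followed at 241 and H2-D1 at 192 CPM per kb, the classical heavy chains. The non-classical H2-T23 came to 48.5, H2-Q6 to 12.2 and H2-Q7 to 8.11 CPM per kb. Tap2 at 8.05, Psmb8 at 8.00 and Tap1 at 6.19 CPM per kb were close to each other, and Nlrc5 was lowest at 1.79 CPM per kb. This order depends on the exons annotated for each gene. H2-Q7, with 4265 bases of exon, came below H2-Q6, with 2085 bases, although its CPM was higher in every mouse. The heavy chains resemble each other in sequence, so reads that do not tell them apart were lost. Of all stretches of 100 bases in the transcripts of H2-Q7, 12.0% occur also in other genes, as do 10.8% for H2-Q6, 3.59% for H2-D1, 3.15% for H2-T23 and 0.957% for H2-K1, and none for the other 5 genes. The levels of H2-Q6 and H2-Q7 are therefore uncertain. These shares count exact matches only and set no upper limit on that uncertainty. The heavy chain genes H2-Q8 and H2-Q9 had 0 identifiers among those counted, so their levels were not measured. All values below are CPM with libraries scaled by the TMM (trimmed mean of M values) method, or log2 fold changes of these counts.

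The heavy chains H2-Q6 and H2-Q7 varied most among the mice, from 5.88 to 104 CPM and from 7.47 to 142 CPM. At 12 weeks H2-Q7 read 15.8, 12.0, 10.7, 7.47 and 11.4 CPM in the SO mice 1 to 5. At 32 weeks it read 55.8, 65.9, 34.0, 142 and 32.1 CPM in SO mice. The lowest SO mouse at 32 weeks was thus above the highest at 12 weeks. In PF mice H2-Q7 read 37.2, 54.0, 28.7, 49.5 and 12.6 CPM at 12 weeks, and 31.7, 32.0, 26.2, 14.97 and 26.6 CPM at 32 weeks. All PF mice but mouse 5 at 12 weeks were above all SO mice of that age, and at 32 weeks all PF mice were below all SO mice, by a narrow margin at the nearest pair. In LO mice it read 19.2, 12.4, 12.0, 46.5 and 15.8 CPM at 12 weeks, and 35.5, 69.1, 52.5, 20.6 and 53.8 CPM at 32 weeks. Only LO mouse 4 at 12 weeks made the LO ranges overlap.

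H2-Q6 ran in parallel. In SO mice it read 11.2, 8.49, 8.53, 5.88 and 8.37 CPM at 12 weeks and 31.0, 53.1, 29.6, 104 and 22.9 CPM at 32 weeks, with no overlap. In PF mice it read 22.4, 36.9, 23.7, 36.2 and 10.0002 CPM at 12 weeks and 24.1, 21.8, 19.8, 12.1 and 25.2 CPM at 32 weeks. At 32 weeks the PF mice overlapped the lowest SO mouse. The ratio of H2-Q7 to H2-Q6 in CPM had a median of 1.36 over the 30 mice and stayed between 1.06 and 1.80 while both levels spanned more than an order of magnitude.

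The classical heavy chains were far more abundant and moved less. In SO mice H2-K1 read 723, 478, 484, 418 and 429 CPM at 12 weeks and 1209, 954, 741, 1177 and 669 CPM at 32 weeks. Mouse 1 at 12 weeks lay above the lowest mouse at 32 weeks, and the others did not. In PF mice the mean fell between those of the SO groups, at 740 ± 190 CPM (SD, n = 5) at 12 weeks and 679 ± 283 CPM at 32 weeks, and in LO mice it was 569 ± 137 and 808 ± 151 CPM. H2-D1 followed H2-K1 from mouse to mouse, between 309 and 826 CPM, with a ratio of H2-K1 to H2-D1 of 1.42 ± 0.0963 (SD, n = 30). H2-T23, whose product presents leader peptides of other class I chains to NK cell receptors, lay between 75.5 and 246 CPM, and its highest mouse was PF mouse 1 at 32 weeks.

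The light chain gene B2m read 876, 985, 999, 822 and 553 CPM in SO mice at 12 weeks, and 1294, 1633, 1124, 2333 and 1218 CPM at 32 weeks. These groups did not overlap. In PF mice it averaged 1177 ± 302 CPM (SD, n = 5) at 12 weeks and 1158 ± 227 CPM at 32 weeks. The ratio of B2m to the sum of H2-K1 and H2-D1 was 0.997 ± 0.202 over all 30 mice, and its group means stayed between 0.938 and 1.06.

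Nlrc5 was the least abundant of the 10 genes and followed H2-Q6 and H2-Q7. In SO mice it read 10.8, 6.62, 6.02, 5.11 and 5.82 CPM at 12 weeks and 20.1, 24.3, 17.7, 45.9 and 16.2 CPM at 32 weeks. In PF mice it read 14.1, 20.3, 14.9, 28.5 and 7.08 CPM at 12 weeks and 11.04, 14.6, 10.7, 10.0013 and 11.9 CPM at 32 weeks. The SO groups did not overlap each other, and at 32 weeks every PF mouse was below every SO mouse. In LO mice it lay between 6.47 and 27.6 CPM at 12 weeks and between 10.7 and 24.8 CPM at 32 weeks.

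The immunoproteasome subunit Psmb8 read 22.2, 17.8, 15.1, 16.5 and 18.9 CPM in SO mice at 12 weeks and 37.3, 30.7, 29.9, 45.6 and 25.03 CPM at 32 weeks, again without overlap. Psmb5 is the subunit that Psmb8 replaces. The ratio of Psmb8 to Psmb5 in CPM was 0.498 ± 0.0309 (SD, n = 5) in SO mice at 12 weeks and 1.14 ± 0.354 at 32 weeks, and 0.756 ± 0.196 and 0.755 ± 0.0951 in PF mice. Of the transporter genes, Tap1 lay between 17.1 and 36.2 CPM in SO mice at 12 weeks and between 31.7 and 57.6 CPM at 32 weeks, which overlap through mouse 1 at 12 weeks. Tap2, its partner, was spread over nearly the same range in all groups, and the mice numbered 1 held 41.3 to 59.4 CPM against 18.6 to 39.4 CPM in the other 24.

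**Figure D1:**
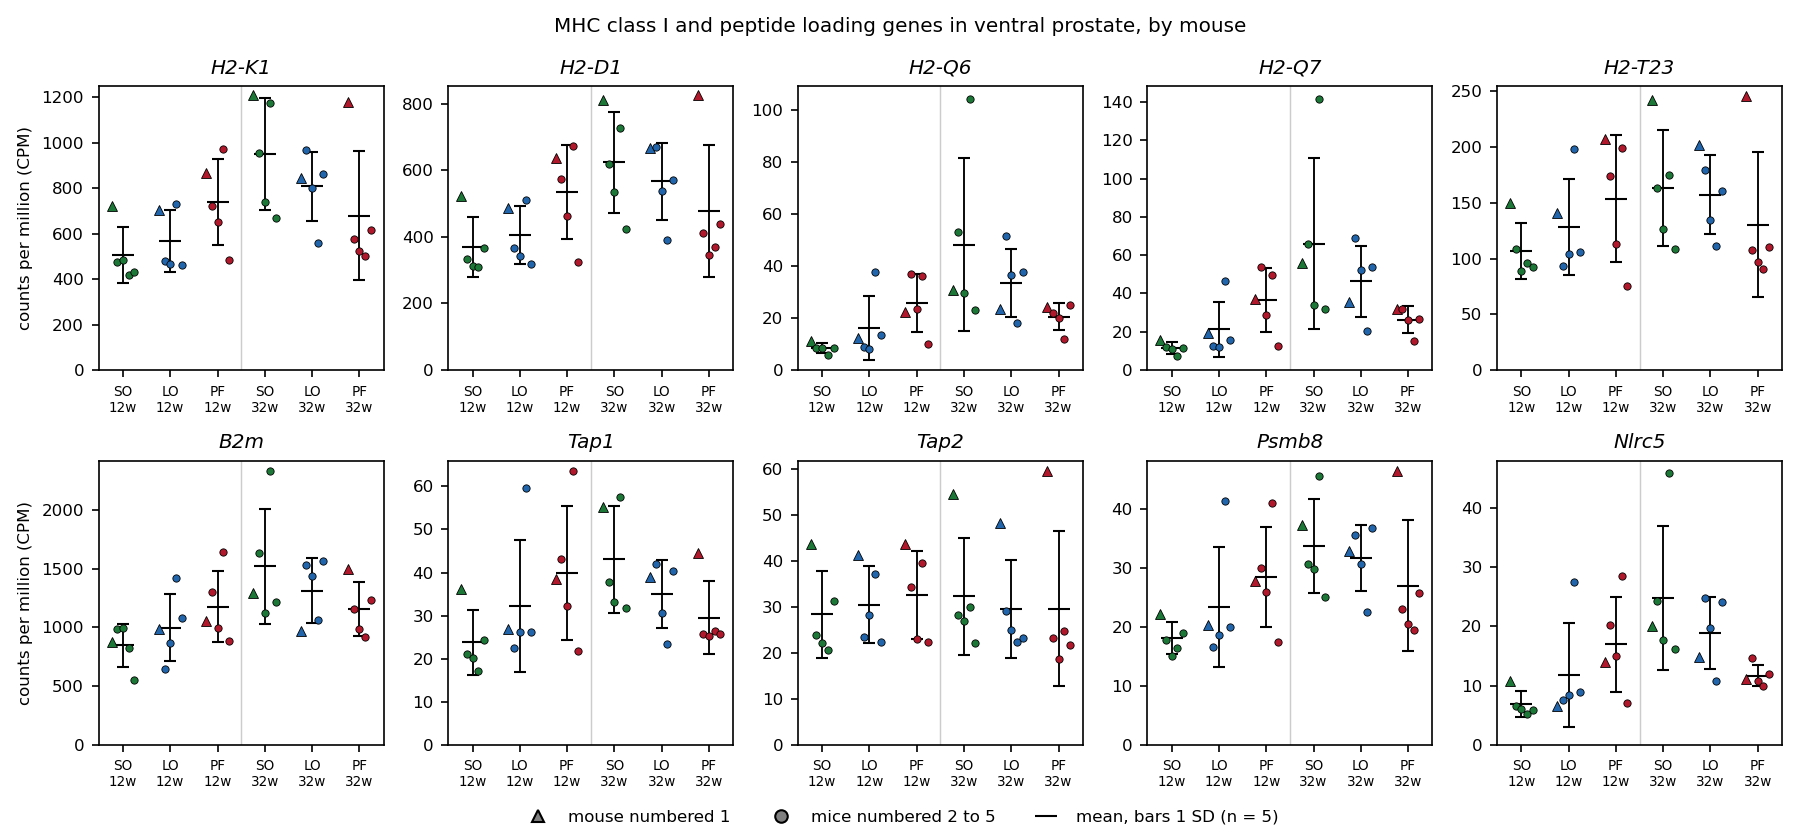
CPM of each of the 10 genes on linear axes, 1 point per mouse in the 6 groups of 5, triangles for the mice numbered 1, with the group mean and 1 SD. H2-Q6, H2-Q7, B2m, Psmb8 and Nlrc5 show no overlap between SO mice at 12 and 32 weeks, and for Tap2 the triangles, 41.3 to 59.4 CPM, are the highest points of every group.

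From 12 to 32 weeks on the SO diet, 7 of the 10 genes rose by edgeR's quasi-likelihood test at a Benjamini-Hochberg adjusted p under 0.05. In this comparison 6.46% of the 16605 genes tested passed in either direction and 5.25% passed as higher. The changes of H2-Q7 and H2-Q6 were 5.75-fold and 5.67-fold (log2 fold change 2.52 ± 0.439 SE and 2.504 ± 0.437, adjusted p = 0.00266 for both, edgeR). Nlrc5, the transactivator, rose 3.61-fold (1.85 ± 0.379, edgeR adjusted p = 0.00603). H2-K1 rose 1.88-fold (0.91 ± 0.233, edgeR adjusted p = 0.0199), Psmb8 1.86-fold and B2m 1.79-fold. H2-D1 rose 1.69-fold and passed narrowly (edgeR adjusted p = 0.0483). The other three also had values above 0, which were 0.86 ± 0.280 for Tap1 (edgeR adjusted p = 0.0628), 0.61 ± 0.287 for H2-T23 and 0.19 ± 0.305 for Tap2. The median over the 10 genes was 0.88 on the log2 scale against -0.00436 over all genes tested, of which 49.2% had a value above 0. The groups did not overlap for 5 of the 10 genes (H2-Q6, H2-Q7, B2m, Psmb8 and Nlrc5), where 5.13% of all genes lay entirely higher at 32 weeks.

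These calls depended on single mice. Without SO mouse 4 at 32 weeks, which held the highest H2-Q6, H2-Q7, B2m, Psmb8 and Nlrc5 of its group, 3 genes remained called (H2-Q6, H2-Q7 and Nlrc5), and the median was 0.74. The same 3 were left without SO mouse 4 or mouse 5 at 12 weeks. The calls for H2-K1, H2-D1, B2m and Psmb8 were thus lost without any 1 of these mice. Without SO mouse 1 at 32 weeks 6 genes were called. Over the 21 alternatives, H2-D1 was called in 11, Psmb8 in 16, and H2-K1 and B2m in 18 each. H2-Q6, H2-Q7 and Nlrc5 were called in all 21. Without all mice numbered 1, 8 genes were called, with Tap1 added at 0.96 and an adjusted p = 0.0495 (edgeR), and the median was 0.96. The share of all genes called in that fit is not given here, so this count has none beside it. For fits without 1 mouse, the range of all genes called is given with the dependence on processing. DESeq2 called 8, among them Tap1, where 5.98% of the genes it tested were called as higher.

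On the LO diet the same interval gave values above 0 for 9 of the 10 genes, with a median of 0.46 and none called by edgeR, where 2.7% of all genes passed. The value was 1.12 ± 0.418 for H2-Q7 (edgeR adjusted p = 0.120), and 4 genes had an unadjusted p under 0.05, as had 11.4% of all genes in the direction of higher values. Of all genes, 47.8% had a value above 0. DESeq2 called none of the 10, where 4.41% of its genes were called as higher. Without the mice numbered 1 the median was 0.50, with 9 values above 0 and none called by edgeR. Without LO mouse 4 at 12 weeks, whose H2-Q6, H2-Q7, Tap1, Psmb8 and Nlrc5 stood far above the other LO mice of its age, edgeR called 3 of the 10. On the PF diet all 10 values were below 0, between -0.54 for Nlrc5 and -0.02 for B2m with a median of -0.20, where 50.7% of all genes had a value above 0. None was called by edgeR or DESeq2 and none had an unadjusted p under 0.05, and 0.0301% of all genes passed by edgeR. The median was -0.47 without PF mouse 1 at 32 weeks and -0.42 without all mice numbered 1, with all 10 values below 0 and none called by edgeR in either.

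**Figure D2:**
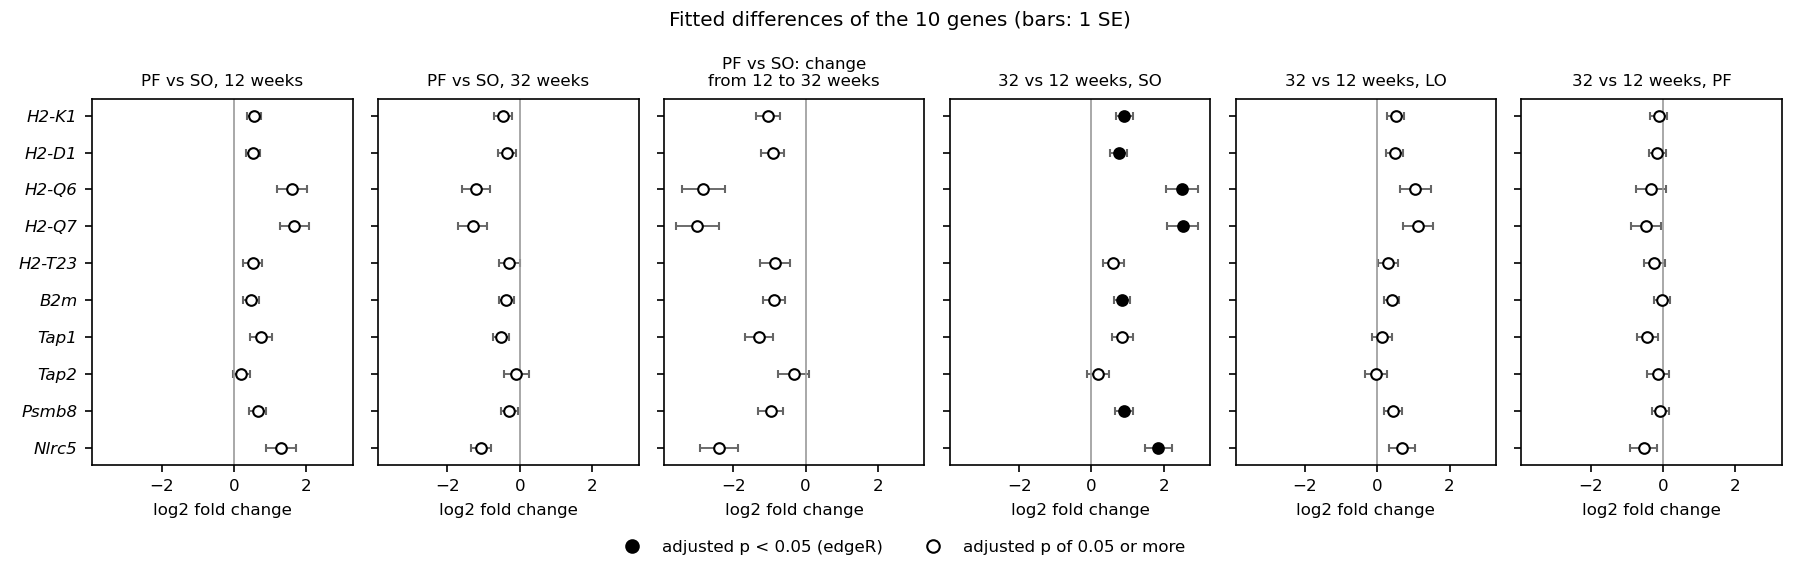
Log2 fold change with its SE from edgeR for the 10 genes (PF against SO at each time, its change between the times and 32 against 12 weeks in each diet), filled where the adjusted p was under 0.05. Values from 12 to 32 weeks lie above 0 for all 10 genes in SO mice and below 0 for all 10 in PF mice.

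Between diets at 12 weeks, the fitted differences of all 10 genes were above 0 for PF against SO, though the ranges of single mice overlapped. The median was a log2 fold change of 0.60 against -0.0148 over all 15873 genes tested, of which 44.8% had a value above 0. None of the 10 passed edgeR's adjusted threshold, and neither did any other gene (0% called). Of the 10, 8 had an unadjusted p under 0.05, a level that 6.14% of all genes reached as higher in PF. H2-Q7 had a value of 1.67 ± 0.407 SE (edgeR adjusted p = 0.149) and H2-Q6 of 1.61 ± 0.414 (edgeR adjusted p = 0.167), followed by Nlrc5 at 1.31 ± 0.415 and Tap1 at 0.75 ± 0.303. The values of H2-K1, H2-D1, B2m and Psmb8 lay between 0.48 and 0.66, H2-T23 was at 0.53 ± 0.263 and Tap2 at 0.21 ± 0.238. DESeq2 called H2-Q6 and H2-Q7 (adjusted p = 0.0312 and 0.0179), 2 of the 10, where 1.23% of the genes it tested were called as higher. For 0 of the 10 genes were all PF mice above all SO mice, which held for 1.14% of all genes. PF mouse 5 was the lowest PF mouse for all 10, and without it edgeR called H2-Q6 and H2-Q7 as well. Without the mice numbered 1 the median was 0.70 and neither edgeR nor DESeq2 called any of the 10.

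At 32 weeks the order was the opposite. The fitted differences of all 10 genes were below 0 for PF against SO, though for most genes the ranges of single mice overlapped. The median was -0.41 against -0.00309 over all 16218 genes tested, of which 49.3% had a value above 0. Again no gene at all passed edgeR's adjusted threshold (0% called), and 4 of the 10 had an unadjusted p under 0.05, which 5.07% of all genes reached as lower. The largest differences were those of H2-Q7 at -1.30 ± 0.398 (edgeR adjusted p = 0.349), H2-Q6 at -1.20 ± 0.386 and Nlrc5 at -1.07 ± 0.278 (edgeR adjusted p = 0.281). DESeq2 called Nlrc5 alone of the 10 (adjusted p = 0.0302), with 0.309% of its genes called as lower. H2-Q7 and Nlrc5, 2 of the 10, were lower in every PF mouse than in any SO mouse, as were 1.2% of all genes. Without the mice numbered 1 the median was -0.59, edgeR called none and DESeq2 called H2-K1 (adjusted p = 0.0364) in place of Nlrc5. For that DESeq2 fit the share of all genes called was not kept. Without SO mouse 4 at 32 weeks the median was -0.33 and the values of H2-Q7, H2-Q6 and Nlrc5 were -0.82, -0.71 and -0.73, and without PF mouse 1 at 32 weeks the median was -0.71.

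The change of the difference between PF and SO from 12 to 32 weeks was tested directly by an interaction term over the 30 mice. It shares its mice with the comparisons above and is therefore no separate evidence. All 10 values were negative, with a median of -1.001 on the log2 scale. H2-Q7 had a value of -2.99 ± 0.599 SE, H2-Q6 of -2.83 ± 0.596 and Nlrc5 of -2.39 ± 0.525, each with an edgeR adjusted p = 0.158, and H2-Q7 had the smallest p of all 16605 genes. No gene passed edgeR's threshold (0% called). Of the 10, 9 had an unadjusted p under 0.05, which 6.65% of all genes reached as lower. DESeq2 called these 3 genes (adjusted p = 0.00277, 0.00587 and 0.0101), with 0.221% of its genes called as lower. Without the mice numbered 1 the median was -1.31, edgeR called none and DESeq2 6. The share of all genes that this DESeq2 fit called was not kept. Without PF mouse 5 at 12 weeks edgeR called H2-Q7 (adjusted p = 0.0403). The same terms for PF against LO and for LO against SO were also negative for all 10 genes, with medians of -0.59 and -0.45, and no gene was called by edgeR (0%). By an unadjusted p under 0.05 in edgeR, 3 of the 10 were found in each, a level that 4.19% and 2.23% of all genes reached as lower. DESeq2 called none of the 10, where 0.098% and 0% of its genes were called. Without the mice numbered 1 the medians were -0.81 and -0.49, with all 10 values below 0 in both and none called by edgeR. The median for LO against SO was -0.26 without LO mouse 4 at 12 weeks and -0.29 without SO mouse 4 at 32 weeks.

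By fitted differences, LO mice lay between the other diets for all 10 genes at 12 weeks and for 9 at 32 weeks. At 12 weeks all 10 genes had higher values in PF than in LO mice, from 0.10 for Tap2 to 0.78 for H2-Q7, and higher values in LO than in SO mice, from 0.11 for Tap2 to 0.94 for H2-Q6, where 49.9% and 50.6% of all genes had a value above 0. At 32 weeks 9 of 10 were lower in PF than in LO mice, down to -0.80 for H2-Q7, with Tap2 at 0.02, and all 10 were lower in LO than in SO mice, from -0.51 for H2-Q6 to -0.04 for H2-T23, where 51.2% and 49.3% of all genes had a value above 0. None of these was called by edgeR or DESeq2, and edgeR called no gene at all (0%) in these 4 comparisons. At an unadjusted p under 0.05 by edgeR there were 0 of 10 for PF against LO at 12 weeks, 2 for LO against SO at 12 weeks (H2-Q6 and H2-Q7, with 2.52% of all genes as higher), 1 for PF against LO at 32 weeks (Nlrc5, with 4.12% of all genes as lower) and 0 for LO against SO at 32 weeks. Single mice moved these values. Without LO mouse 4 at 12 weeks H2-Q6 and H2-Q7 were at 1.28 and 1.302 for PF against LO, both with an unadjusted p under 0.05 by edgeR, and the median was 0.55 in place of 0.34. For LO against SO they were then at 0.33 and 0.37, with a median of 0.06 in place of 0.32, and neither had an unadjusted p under 0.05. Without SO mouse 4 at 32 weeks both were at -0.02 for LO against SO at that time, with a median of -0.04 in place of -0.21, and without SO mouse 1 at 32 weeks H2-T23 was at 0.15. Without the mice numbered 1 the medians were 0.34 for PF against LO and 0.44 for LO against SO at 12 weeks, with all 10 values above 0 in both. At 32 weeks they were then -0.51 in place of -0.23, with all 10 below 0, and -0.15, with 9 below 0. For 7 of the 10 genes (H2-K1, H2-D1, H2-Q6, H2-Q7, H2-T23, B2m and Psmb8) the group means fell in one order, with SO at 32 weeks highest, then LO at 32 weeks, PF at 12 weeks, PF at 32 weeks, LO at 12 weeks and SO at 12 weeks lowest. The ranges of neighbouring groups in that order overlapped for each of the 10 genes.

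The rest of the class I pathway was read from lists of genes with a known role. From 12 to 32 weeks on SO, where edgeR called 5.25% of all genes as higher, 5 of 9 tested other heavy chains of the H2 complex rose by edgeR. Their median log2 fold change was 0.96. The 5 were H2-Q5 (2.18, adjusted p = 0.00755), H2-Q4 (1.06, adjusted p = 0.00789), H2-T10 (0.96, adjusted p = 0.00847), H2-M2 (4.28, adjusted p = 0.00952) and H2-M3. H2-M2 rests on 0 to 2 counts per SO mouse at 12 weeks, so the size of its change is not determined. H2-Q4 and H2-Q5 resemble H2-Q6 and H2-Q7 in sequence and their levels are uncertain in the same way. Of the receptors that read class I, 6 of 10 tested rose, with a median of 1.67, among them the T cell coreceptor gene Cd8a (2.32, adjusted p = 0.00454) and the NK receptor genes Klrd1 (1.60, adjusted p = 0.00734), Klrk1 (1.91, adjusted p = 0.0108) and Klrc1 (1.93, adjusted p = 0.0155).

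The other lists gave few calls from 12 to 32 weeks on SO. There edgeR called 6.46% of all genes and DESeq2 7.84% of its genes, and 19.7% had an unadjusted p under 0.05 by edgeR. None of the 6 genes for peptide loading and trimming in the endoplasmic reticulum passed edgeR's test, with a median of 5.5e-05, while 2 had an unadjusted p under 0.05 and DESeq2 called 0. Canx, the chaperone calnexin, was at -0.25 (edgeR adjusted p = 0.0872). None of the other 4 genes of the immunoproteasome and its activator passed by edgeR (median 0.41, Psmb9 at 0.79 with an adjusted p = 0.0645), while DESeq2 called 2. None of the 3 constitutive catalytic subunits passed by edgeR or DESeq2 or had an unadjusted p under 0.05, with Psmb5 at -0.27. Of 17 tested genes of interferon signalling and class I transcription, 2 rose by edgeR. These were Ciita, the class II transactivator (1.76, adjusted p = 0.0113), and Irf9 (0.88, adjusted p = 0.0257), and the median was 0.18. Between PF and SO mice no gene of any of these lists passed edgeR's test at 12 or at 32 weeks. At 12 weeks 6 of 8 other heavy chains were higher in PF mice, and at 32 weeks 8 of 9 were lower. Of all genes, 44.8% and 49.3% had a value above 0. By an unadjusted p under 0.05 in edgeR, in either direction, there were 6 of 8 and 4 of 9, against 7.99% and 10.8% of all genes. DESeq2 called 1 at 12 weeks and 0 at 32 weeks, where 1.26% and 0.716% of its genes were called.

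**Figure D3:**
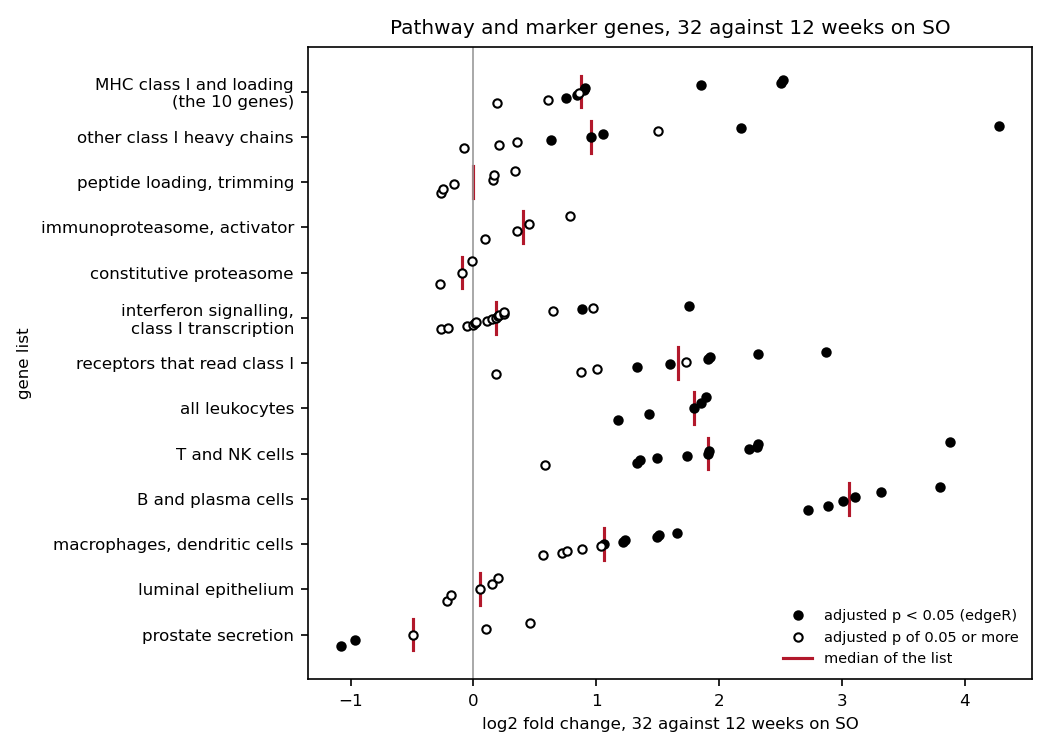
Log2 fold changes from 12 to 32 weeks in SO mice for the genes of each list, 1 point per gene, filled where edgeR's adjusted p was under 0.05, with a bar at the median of the list. The 10 genes have a median of 0.88, the receptors that read class I 1.67 and the leukocyte lists between 1.06 and 3.06, against 0.05 for luminal epithelium.

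Markers of leukocytes rose with these genes in SO mice, and some had higher medians at 32 weeks on the other diets as well. In whole tissue, more cells of a type and more RNA per cell cannot be told apart. From 12 to 32 weeks on SO, 5 of 5 markers of all leukocytes rose (median log2 fold change 1.80), as did 10 of 11 markers of T and NK cells (1.91), 6 of 6 of B and plasma cells (3.06) and 6 of 11 of macrophages and dendritic cells (1.06). Of all genes, edgeR called 5.25% as higher. Neutrophil markers gave 0 of 2, endothelium 1 of 5, fibroblasts 0 of 5, smooth muscle 0 of 5, luminal epithelium 0 of 5 (median 0.05) and basal epithelium 1 of 3. Of 5 adipocyte markers 0 were called and 4 were below 0, with a median of -0.80, and their summed level had a median of 106 CPM in SO mice at 12 weeks (range 45.4 to 441) and 40.3 CPM at 32 weeks (27.6 to 218). Of 5 genes of prostate secretion, Sbp and Sbpl, which encode spermine-binding proteins of the secretion, fell (-0.96 and -1.08, edgeR adjusted p = 0.010022 and 0.0481). The 5 secretion genes made up much of each library. From 12 to 32 weeks their median sum went from 283306 to 157838 CPM in SO mice. It went from 216918 to 148768 CPM in LO mice and from 263758 to 262106 CPM in PF mice. Any part of this shift in the values of the 10 genes was not tested. Summed over the 5 leukocyte markers, the level ranged from 32.9 to 40.2 CPM in SO mice at 12 weeks and from 59.7 to 196 CPM at 32 weeks. In PF mice it ranged from 40.1 to 107 CPM at 12 weeks and from 49.5 to 115 CPM at 32 weeks, and in LO mice from 27.7 to 77.3 and from 39.7 to 112 CPM. The highest of all mice was SO mouse 4 at 32 weeks, which was also highest for H2-Q6, H2-Q7, B2m and Nlrc5. At 12 weeks the 5 leukocyte markers all had values above 0 for PF against SO, with 0 called by edgeR and 5 by DESeq2. DESeq2 called 1.23% of its genes as higher there. At 32 weeks all 5 were lower with 0 called by edgeR. From 12 to 32 weeks the median sum of B and plasma cell markers went from 26.9 to 285 CPM in SO mice. It went from 40.1 to 626 CPM in LO mice and from 54.8 to 255 CPM in PF mice. For T and NK cells the medians went from 12.0 to 24.6 (SO), 12.4 to 22.6 (LO) and 20.5 to 20.9 CPM (PF). For macrophages and dendritic cells they went from 166 to 429 (SO), 225 to 482 (LO) and 301 to 363 CPM (PF). The part of leukocytes in the values of the 10 genes was not tested.

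Over the 30 mice, after each group's mean was removed from log2 CPM, the 10 genes correlated with the marker lists to unequal degrees. The Pearson correlation with the mean of the T and NK cell markers was 0.87 for H2-Q6 and H2-Q7, 0.83 for Nlrc5 and 0.72 for B2m. It was 0.50 for H2-K1, 0.44 for H2-D1 and 0.43 for H2-T23, and 0.16 for Tap2. For the mean of the 10 genes it was 0.73 for T and NK cells, 0.63 for all leukocytes, 0.50 for basal epithelium, 0.36 for macrophages and dendritic cells, 0.35 for B and plasma cells, 0.27 for fibroblasts, 0.20 for luminal epithelium, 0.16 for smooth muscle, 0.08 for neutrophils, 0.07 for prostate secretion, -0.18 for endothelium and -0.43 for adipocytes. For the basal epithelium markers it was 0.54 for H2-K1, 0.60 for H2-D1, 0.58 for H2-T23 and 0.67 for Tap2, above the value of each for T and NK cells. Tap2 was at 0.66 with the smooth muscle markers, and H2-Q6, H2-Q7 and Nlrc5 were at -0.50 with those of adipocytes. These are descriptions of 30 mice whose genes share a library. Only group means were removed, so the difference of the mice numbered 1 remained in these correlations. H2-K1, H2-D1, H2-T23 and Tap2 were among the genes that were higher in those mice. The part of those mice in the correlations was not tested.

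**Figure D4:**
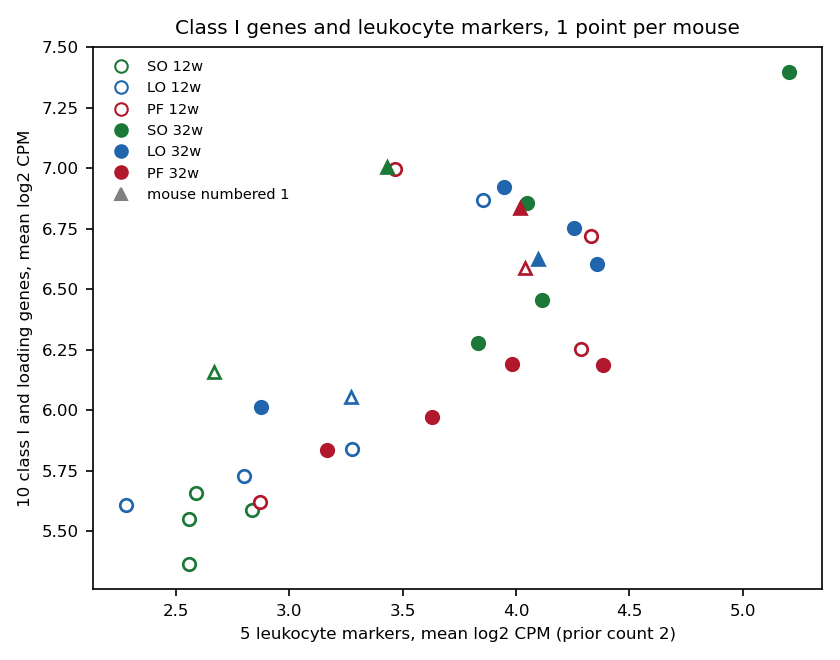
Mean log2 CPM of the 10 genes against the mean log2 CPM of the 5 leukocyte markers, 1 point per mouse, coloured by diet, open at 12 and filled at 32 weeks, with triangles for the mice numbered 1. SO mice at 12 weeks lie between 5.36 and 6.16 on the vertical axis, and SO mouse 4 at 32 weeks is at the top right with 7.40.

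Among themselves the 10 genes correlated to unequal degrees. The median Pearson correlation over their pairs, again after group means were removed, was 0.77. The closest pairs were H2-Q6 with H2-Q7 and H2-K1 with H2-D1, both at 0.97, and H2-D1 with H2-T23 at 0.95, while B2m with Tap2 was at 0.19. The mice numbered 1 were kept in these correlations too, and their part in the differences between pairs was not tested.

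**Figure D5:**
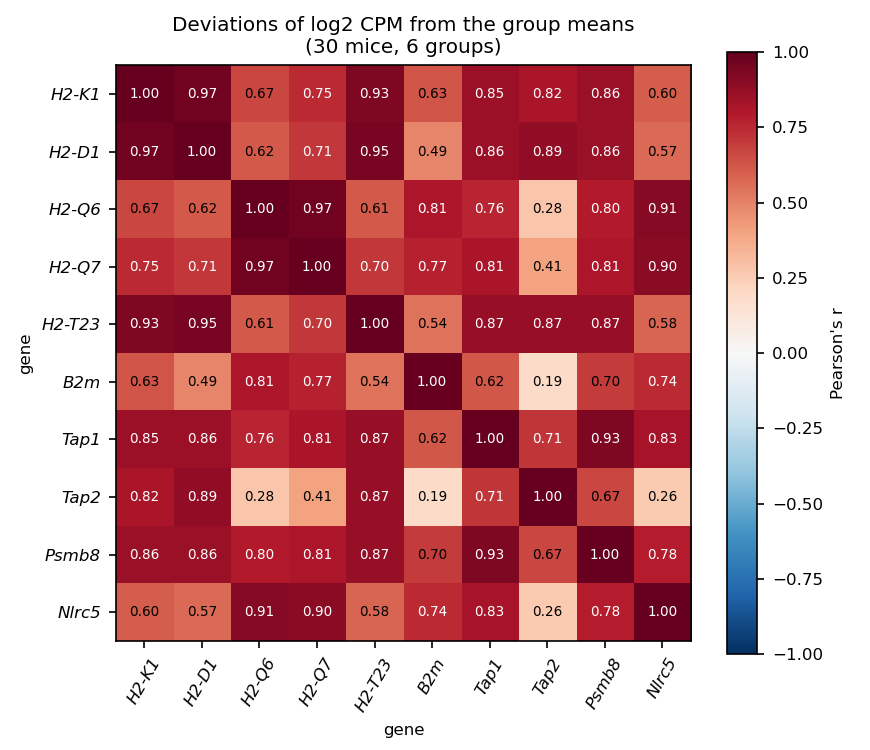
Pearson correlation between each pair of the 10 genes over 30 mice, computed on log2 CPM after group means were removed. Values run from 0.19 for B2m with Tap2 to 0.97 for H2-Q6 with H2-Q7.

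The genes outside the set whose deviations were most like the mean of the 10 were H2-Q4 (Pearson r = 0.96), Psmb9 (0.94), Irf7 (0.92), Slfn2 (0.92), Isg15 (0.92), Oasl1 (0.91), H2-Q5 (0.90), Gbp3 (0.90), Rtp4 (0.90) and Lgals3bp (0.90). The median over the 16595 other genes was 0.000992. These values too include the mice numbered 1. H2-Q4 and H2-Q5 encode class I heavy chains, Psmb9 an immunoproteasome subunit and Irf7 an interferon regulatory factor. Isg15, Oasl1, Gbp3 and Rtp4 are known as genes induced by interferon.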

How the data were processed

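RNA of the VP of 30 mice was sequenced with a stranded mRNA library kit as paired reads of 100 bases. Per the labels, the authors aligned the reads with TopHat2 to GRCm38.p6 and counted read pairs per gene with HTSeq, whose versions and strand setting are not given in the sources used here, and deposited the raw counts of each mouse in a file of its own, not normalized, in which pairs aligned to several places are not counted. Each mouse took its diet, time and number from its label. Identifiers were matched to symbols in GENCODE mouse release 21 (37607 of 39179).

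Low genes of the deposited count files were removed by filterByExpr, libraries were scaled by TMM, and the two-sided quasi-likelihood F test of edgeR 4.0.16 in R 4.3.3 was run over all genes that passed, with Benjamini-Hochberg adjustment and a threshold of 0.05. The 3 diets of a time point entered one fit of 15 mice, and time and interaction contrasts came from one fit of all 30. An SE was derived as the size of the log2 fold change over the square root of F. CPM used TMM-scaled totals over the 30 mice, and log2 CPM a prior count of 2. DESeq2 1.42.0 (Wald test) was an alternative, as were other scaling, filters, fits, thresholds, a replicate block and leaving out mice. The fits were also run on simulated counts, with each gene drawn independently and with the same dispersion in every group. Those counts hold no unequal spread between groups, no correlation between genes and no difference of the mice numbered 1. They therefore say nothing on how the fits handle these. P-values set a difference against the variation between mice within groups. That variation was estimated over all groups of a fit, with information shared across genes, though the spread differed between groups. The SD of H2-Q7 was 2.97 CPM in SO mice at 12 weeks and 44.7 CPM at 32 weeks. Total counts lay between 27590631 and 41301707, and a count interval covers counting error only.

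The 10 genes, the pathway and marker lists and the rules were chosen with earlier results of these data known. Named beside the 10 genes were up to 4 genes of a list per comparison, those with the smallest p, and the 10 other genes most like their mean over the mice. H2-M3 was named after its values were seen. RefSeq promoters were read with Python 3.11.15.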

Additional observations from a re-analysis of the deposited data

Results flagged for a closer look

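In each group of 5 mice the gap between the highest or lowest mouse and its neighbour was set against the range of the group, with Dixon's critical value of 0.71. Of the 60 sets of 5 values (10 genes in 6 groups), 17 passed, and in each the highest mouse stood out. About 3 would pass by chance if the sets were normally distributed and independent. The 10 genes correlated over the mice at a median of 0.77, so the sets were not independent, and 17 against 3 measures no excess over chance. They came from few mice.

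In PF mouse 1 at 32 weeks, 6 genes stood out, with H2-K1 at 1179 CPM, H2-D1 at 826 CPM, H2-T23 at 246 CPM, Tap1 at 44.6 CPM, Tap2 at 59.4 CPM and Psmb8 at 46.5 CPM. In SO mouse 1 at 12 weeks H2-K1 stood out at 723 CPM, H2-D1 at 523 CPM and Nlrc5 at 10.8 CPM. Tap2 also stood out in LO mouse 1 and SO mouse 1 at 32 weeks, at 48.1 and 54.4 CPM. PF mouse 1 at 32 weeks also had the highest sum of the constitutive proteasome subunits, 339 CPM against at most 248 CPM in the other mice, and the lowest share of read pairs on no gene, 6.667% against 8.921% or more. These mice belong to the 6 numbered 1, in which 4.52% of all genes lay above every other mouse. The cause of that was not tested.

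In LO mouse 4 at 12 weeks 5 genes stood out, with H2-Q6 at 37.8 CPM, H2-Q7 at 46.5 CPM, Tap1 at 59.6 CPM, Psmb8 at 41.4 CPM and Nlrc5 at 27.6 CPM. Its summed leukocyte markers, 77.3 CPM, were the highest of the LO mice of that age. In SO mouse 4 at 32 weeks Nlrc5 stood out at 45.9 CPM, in the mouse with the highest leukocyte markers of all, 196 CPM. The part of leukocytes in these values was not tested.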

How the results depend on the processing

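Of 2880 comparisons of a value with its alternatives, 2776 kept direction and side of the threshold, 21 lost and 40 gained a call, 43 uncalled values changed sign, and no called value reversed. The cause of the following changes was not tested. By DESeq2, 2 of the 10 genes were called for PF against SO at 12 weeks, 1 at 32 weeks and 3 for its change with time. Over all genes DESeq2 called 221 (PF against SO) and 76 (PF against LO) at 12 weeks, 109, 84 and 6 (LO against SO) at 32 weeks, 1096 for LO and 52 for PF with time, and 44 and 14 for the change of PF against SO and against LO, where edgeR called 448 for LO, 5 for PF and none of the others. At an adjusted p under 0.1 the time comparisons gave 1335 genes for LO, 1742 for SO and 18 for PF. PF with time gave 0 genes without a filter, 2 with at least 10 counts in every sample, 0 without the mice numbered 1 and 0 with only the groups compared, which also gave 57 for LO with time and 1 for LO against SO at 32 weeks. All 6 groups in one fit gave 2 genes for PF against LO at either time, and leaving out the mice numbered 1 gave 1 gene for PF against SO at 12 weeks. Added after the data had been seen, DESeq2 without the mice numbered 1 called 1 of the 10 genes for PF against SO at 32 weeks, 1 for LO with time and 6 for the change of PF against SO. The number of all genes called was not kept for the added fits, so these counts have no share beside them.

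With 1 mouse left out at a time, the calls among the 10 genes ranged from 3 to 8 for SO with time, 0 to 3 for LO with time, 0 to 2 for PF against SO at 12 weeks and 0 to 1 for its change. All genes called ranged from 226 to 1556 for SO, 47 to 1043 for LO and 0 to 7 for PF with time, 0 to 131 for PF against SO and 0 to 1 for PF against LO at 12 weeks, 0 to 1 for PF against SO at 32 weeks and 0 to 3 for its change. The calls without single mice given above are to be read against these totals.

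The groups share replicate numbers, but no label ties mice of one number to a shared litter or day. After group means were removed, same-numbered mice correlated at 0.0559 on average at 12 weeks and 0.132 at 32 weeks, and 3 of 15 and 6 of 15 mice correlated best with their own number, so the pairing was not taken as given. The mice numbered 1 correlated at 0.400 and 0.428 on average, and no other number passed 0.154. With the replicate block, edgeR called 8 of the 10 genes for SO with time, with 1224 genes in all, and none of the 10 elsewhere. DESeq2 with the replicate block, added later, called 2 for PF against SO at 12 weeks, 1 at 32 weeks, 4 for LO with time and 4 for the change of PF against SO. Here too the share of all genes called was not kept.

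Each of the 10 genes had 167 or more counts in every mouse, and each group held 5 mice. Time and age cannot be told apart, nor can cell number and RNA per cell in whole tissue.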
